A study of Mus musculus with 24 samples.

Results

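Kruppel-like factors (KLFs) are transcription factors that bind GC-rich DNA and CACCC boxes through a block of C2H2 zinc fingers at the end of the protein, and each member differs from the others mainly in the part that meets cofactors. *Klf2*, *Klf4*, *Klf5*, *Klf6* and *Klf7* are known mostly as activators, *Klf3* represses through the corepressor CtBP, and *Klf9*, *Klf10* and *Klf13* carry a motif that recruits the Sin3 complex. In mammary tumors the family is known for opposed roles, with *Klf4* and *Klf5* tied to stemness and proliferation and *Klf6* to growth arrest. The 9 members described here are *Klf2*, *Klf3*, *Klf4*, *Klf5*, *Klf6*, *Klf7*, *Klf9*, *Klf10* and *Klf13*, taken by symbol from a table of 12091 genes, which held all 9. They were chosen on measured values, since the rule that names them also names the low *Klf2* of E0771 cells with shPTN. Every value of a member from that contrast is therefore given as a description, with no test.

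RNA was sequenced from 24 samples in 4 experiments, each with 3 control samples and 3 samples in which pleiotrophin (PTN), a heparin-binding growth factor, was inhibited. 4T1 mammary carcinoma cells were implanted in the mammary fat pad of female BALB/c mice 8 wk of age, and *MMTV-PyMT* tumors arose in FVB/N mice whose mammary epithelium expresses the polyoma middle T antigen from the MMTV promoter, treated from 8 to 12 wk of age. Mice of both models received the control antibody C44 or the anti-PTN antibody 3B10 at 15 mg/kg. E0771, a mammary carcinoma line from C57BL/6 mice, and E0771-LG, derived from a lung metastasis of E0771, carried a control vector that targets EGFP (shCtrl) or 1 shRNA construct against *Ptn* (shPTN), and both populations were selected with puromycin for 6 wk. Each shCtrl and shPTN population was selected on its own, so effects of the selection and of the shRNA cannot be told apart. Whether the 3 samples of a cell group came from separate populations is not stated. The SE and p-values in the cells may thus reflect only the spread between samples of 1 population. The deposited values of the 18 samples outside the 4T1 model are log2 counts per M reads (log2 CPM) and rest on 15.63 to 21.12 M reads on genes per sample. The 4T1 values are normalized for gene length and their depth is unknown, so 4T1 levels are compared with no other experiment.

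*Ptn* was checked first, as the gene the shRNA targets. Its level was 2.90, 2.18 and 2.28 log2 CPM in the E0771 shCtrl samples and -0.63, 0.25 and 0.53 in the shPTN samples. In E0771-LG cells the level was 3.65, 4.51 and 3.74 with shCtrl and 1.42, 0.98 and 1.38 with shPTN. In both lines the shPTN and shCtrl samples did not overlap, and *Ptn* fell by 2.71 on the log2 scale in E0771-LG cells (SE 0.28, limma's adjusted p = 6.3e-05), with a threshold of 0.05 here and below. In E0771 cells the shPTN mean was 0.05 and the shCtrl mean 2.45. The antibody acts on the protein, and *Ptn* mRNA in *MMTV-PyMT* tumors differed by 0.50 on the log2 scale (SE 0.37, adjusted p = 1 by limma). In 4T1 tumors *Ptn* was too low to be tested, with a mean of -0.32 with C44 and 0.16 with 3B10 on the log2 scale of that model.

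The cell labels were also set against marker genes. In the E0771 shCtrl samples *Krt8* carried most of the epithelial signal, with 90.4 to 107 CPM, and 4 of 6 epithelial markers were under 1 CPM in every E0771 sample. The lymphocyte markers in the table (3 of 6 on the list) summed to at most 0.861 CPM in any sample of either line. In the tumors the endothelial, myeloid, fibroblast and epithelial lists all had genes well above 1, while the muscle list was at most 0.232 in 4T1 C44 replicates 2 and 3. A member's level in a tumor is an average over cell types, and fewer cells of a type and less RNA per cell cannot be told apart.

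*Klf2*, known from endothelial cells and from quiescent lymphocytes, was the member with the widest range of levels in the cells. Its gene (ENSMUSG00000055148) lies on the plus strand at chr8:72319033-72321656 in GRCm38, with 3 exons and 1 annotated transcript. In E0771 cells its level was 6.51, 6.84 and 6.82 log2 CPM with shCtrl and 4.91, 4.62 and 4.86 with shPTN. The shPTN samples all lay well below the shCtrl samples, at 442 to 579 reads against 1574 to 2334. The log2 fold change was -1.93, the value that chose the family. In E0771-LG cells the level was 6.04, 5.79 and 5.78 log2 CPM with shCtrl and 6.73, 7.17 and 7.03 with shPTN. Here all of the shPTN samples lay above the shCtrl samples, at 2239 to 2594 reads against 1019 to 1137. *Klf2* rose by 1.11 on the log2 scale (SE 0.13, adjusted p = 0.00013 by limma), 2.15 times the control level. The knockdown of *Ptn* was thus accompanied by opposite values of *Klf2* in the parental and the derived line, and this difference between the lines was not tested, since it uses the samples that chose the members.

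The order of *Klf2* levels on the common log2 CPM scale was E0771-LG shPTN (6.97), E0771 shCtrl (6.72), E0771-LG shCtrl (5.87), E0771 shPTN (4.79), *MMTV-PyMT* with 3B10 (3.11) and *MMTV-PyMT* with C44 (2.95). The samples of the top pair of groups overlapped, as did those of the *MMTV-PyMT* groups, and the other neighbours did not overlap. With shCtrl, E0771-LG cells thus held less *Klf2* than E0771 cells, by -0.86 on the log2 scale, and with shPTN more, by 2.18.

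As *Klf2* is best known from endothelium, the endothelial markers were summed, of which 6 of 8 were in the table. Their level was 26.1 to 32.9 CPM in E0771 shCtrl and 33.2 to 44.7 CPM in E0771 shPTN samples. It was 10.4 to 14.3 CPM in E0771-LG shCtrl and 22.3 to 26 CPM in E0771-LG shPTN samples. *Egfl7* was the most abundant of them in every sample of both lines, with at least 2 of the 6 under 1 CPM. In E0771-LG cells *Egfl7* rose by 1.40 on the log2 scale (adjusted p = 0.000331 by limma). The other markers tested there, *Cdh5* (0.22) and *Tie1* (-0.09), had groups that overlapped. The part of the endothelial markers in the values of *Klf2* was not tested.

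The bases upstream of *Klf2* and *Klf4* are shown because these members had the lowest fold changes of the family in E0771 cells and different values in E0771-LG cells. They are from the RefSeq promoter table on GRCm38.p6, which matched 7 of the 9 members and not *Klf5* or *Klf10*, at chr8:72318812-72319032 on the plus strand and chr4:55532476-55532725 on the minus strand. Capitals mark CCGCCC or its reverse complement GGGCGG, a GC box.
Klf2: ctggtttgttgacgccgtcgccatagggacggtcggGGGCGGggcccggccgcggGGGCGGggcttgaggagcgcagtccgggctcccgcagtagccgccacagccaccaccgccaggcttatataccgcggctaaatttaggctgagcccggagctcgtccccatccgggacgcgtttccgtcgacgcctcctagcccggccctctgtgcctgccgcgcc
Klf4: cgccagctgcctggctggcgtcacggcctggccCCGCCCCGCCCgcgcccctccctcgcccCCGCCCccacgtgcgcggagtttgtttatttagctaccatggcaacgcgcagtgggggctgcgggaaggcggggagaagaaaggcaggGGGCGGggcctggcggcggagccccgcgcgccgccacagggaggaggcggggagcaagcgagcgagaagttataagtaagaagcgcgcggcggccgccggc
The *Klf2* stretch holds 2 GC boxes and the *Klf4* stretch 4, a pair of which overlap by a base. Over the full windows of 250 bases before to 50 after the start, 6 of the 7 members matched held CCGCCC on either strand, against 35.7% of the 32851 promoters of the table. CACCC, the core of the KLF binding site, was in 5 of 7, against 57.5% of all promoters. CTATTTATA, 1 form of the MEF2 site, was in 0 of 7, against 0.429%. Other forms were not counted, and the *Klf2* stretch holds one of them, ctaaatttag, so this count does not show that a promoter lacks a MEF2 site. These matches are descriptions of the letters and say nothing of binding.

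**Figure D1:**
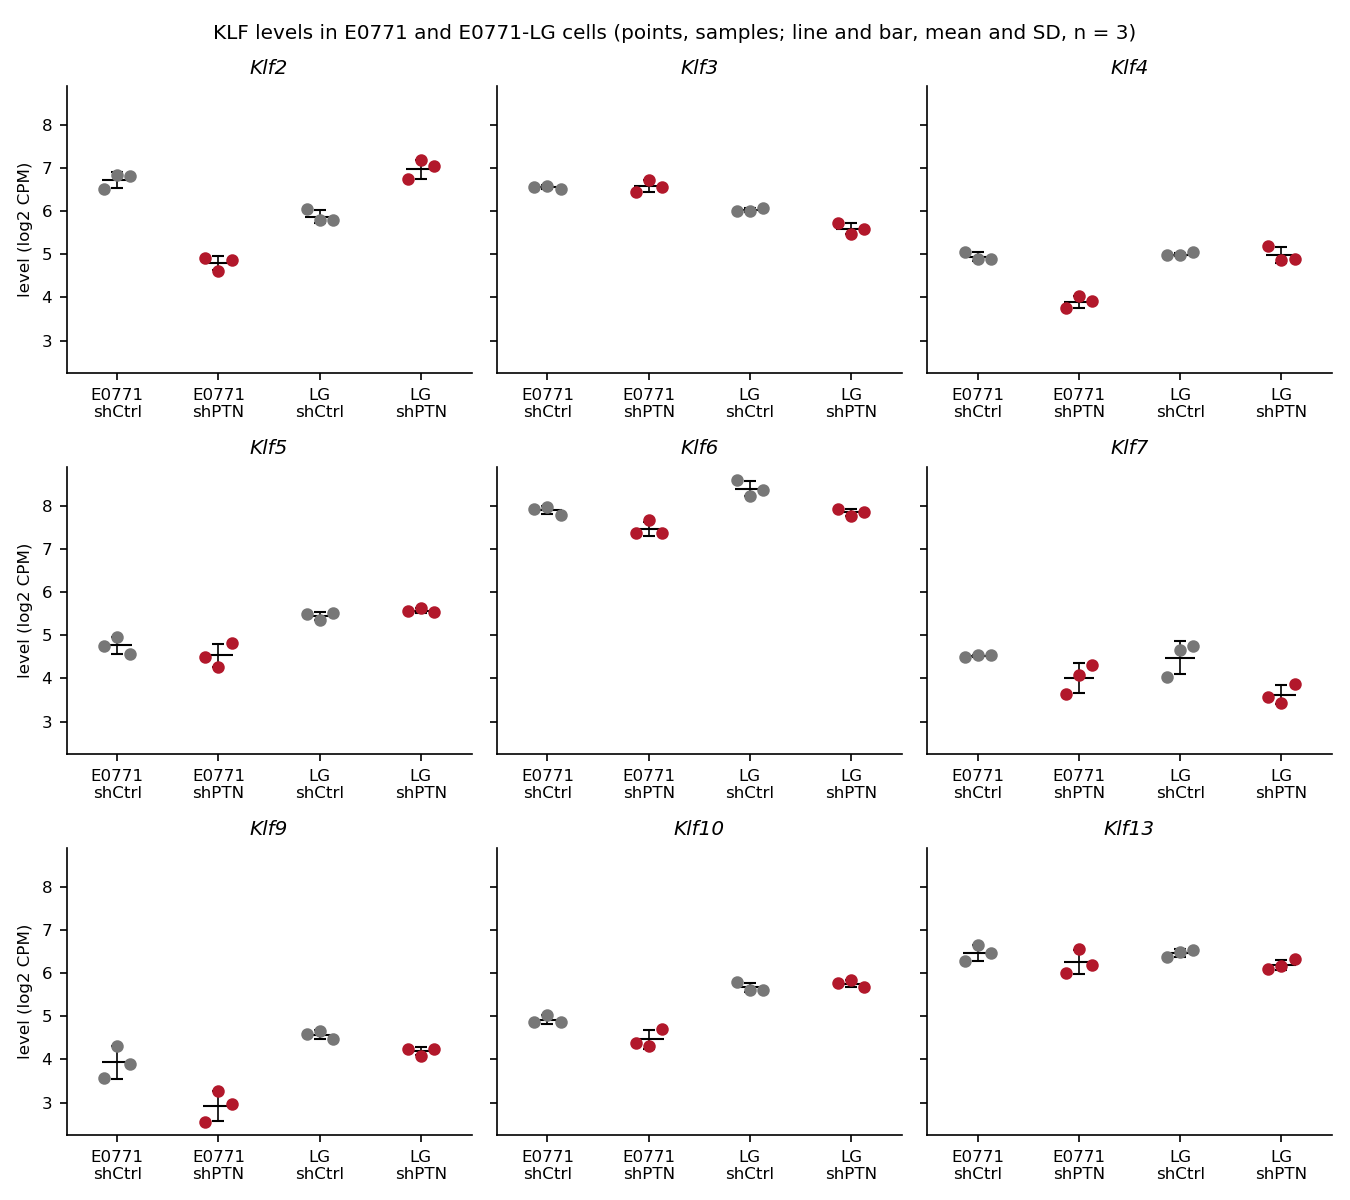
Level of each of the 9 Kruppel-like factors (vertical axis, log2 CPM) in E0771 and E0771-LG cells with shCtrl (gray) or shPTN (red); points are samples, and the line and bar are the mean and SD (n = 3). Klf2 has a mean of 4.79 in E0771 shPTN and 6.97 in E0771-LG shPTN cells, while Klf4 has 3.90 and 4.98.

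*Klf4*, a factor of epithelial differentiation and of reprogramming, and the paralog closest to *Klf2* in function in endothelial cells, lies on the minus strand at chr4:55527143-55532466. In E0771 cells its level was 5.05, 4.88 and 4.88 log2 CPM with shCtrl and 3.76, 4.03 and 3.92 with shPTN. The groups did not overlap, and the log2 fold change was -1.04. In E0771-LG cells the level was 4.97, 4.97 and 5.04 with shCtrl and 5.18, 4.87 and 4.88 with shPTN. These groups overlapped, at -0.02 on the log2 scale (SE 0.13, limma's adjusted p = 0.924), and leaving out 1 sample gave -0.12 to 0.03. The shCtrl levels of the lines, 4.94 and 4.99, overlapped between the lines and the shPTN levels did not, a difference that was not tested.

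*Klf5*, *Klf6* and *Klf7* complete the activators. *Klf6* had the highest level per length of the members in 6 of the 8 groups. In E0771-LG cells it was 8.59, 8.23 and 8.36 log2 CPM with shCtrl and 7.92, 7.75 and 7.86 with shPTN. All shPTN samples lay below, and *Klf6* fell by 0.55 on the log2 scale (SE 0.11, adjusted p = 0.00199 by limma). In E0771 cells it was 7.91, 7.97 and 7.79 with shCtrl and 7.36, 7.66 and 7.36 with shPTN, again with no overlap. *Klf7*, known from neurons and as a repressor of fat cell formation, was 4.03, 4.65 and 4.75 log2 CPM in E0771-LG shCtrl and 3.56, 3.44 and 3.87 in E0771-LG shPTN samples. It fell by 0.85 (SE 0.21, adjusted p = 0.00689 by limma), the lowest fold change of the family in that line, and the shCtrl samples spread by 0.39 (SD). In E0771 cells *Klf7* was 4.50, 4.54 and 4.54 with shCtrl and 3.63, 4.07 and 4.32 with shPTN, without overlap. The log2 fold change there was -0.52 (-0.67 to -0.33 with 1 sample left out). Exons of *Klf7* share 3196 bases with a noncoding gene on the opposite strand, and whether the counting used strand is not stated, so its reads may include those of its neighbour. *Klf5*, a factor of proliferating epithelium, stood at 0.12 on the log2 scale in E0771-LG cells (SE 0.11, limma's adjusted p = 0.39), although the groups just failed to overlap. Leaving out 1 sample gave 0.07 to 0.16.

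Of the repressors, *Klf3* was 6.00, 5.99 and 6.07 log2 CPM in E0771-LG shCtrl and 5.72, 5.47 and 5.58 in E0771-LG shPTN samples. It fell by 0.43 on the log2 scale (SE 0.11, adjusted p = 0.0077 by limma), whereas in E0771 cells the groups overlapped with a log2 fold change of 0.02 (-0.05 to 0.09 with 1 sample left out). Exons of *Klf3* share 404 bases with a noncoding gene on the opposite strand. *Klf9*, a gene induced by glucocorticoids, was 3.57, 4.32 and 3.90 log2 CPM in E0771 shCtrl and 2.55, 3.26 and 2.96 in E0771 shPTN samples, at 113 to 172 reads in the latter. Its log2 fold change there was -1.01 with no overlap. In E0771-LG cells *Klf9* was 4.59, 4.66 and 4.47 log2 CPM with shCtrl and 4.25, 4.08 and 4.25 with shPTN, without overlap. It fell by 0.38 on the log2 scale (SE 0.13, limma's adjusted p = 0.0385). That call ended when any 1 of the 6 samples was left out (adjusted p of 0.0566 to 0.132), and over the alternatives the adjusted p ran from 0.0152 to 0.17. *Klf13* had -0.27 (adjusted p = 0.0545) and passed without E0771-LG shCtrl replicate 1 (adjusted p = 0.0204) and with median-of-ratios scaling (0.0328), in a range of 0.0204 to 0.175 over the alternatives. *Klf10*, a gene induced early by TGF-beta, had -0.46 in E0771 cells with no overlap. In E0771-LG cells it had 0.08 (adjusted p = 0.547 by limma), or 0.04 to 0.14 with 1 sample left out.

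In the count over the family, 6 of the 9 members lay entirely below shCtrl in E0771 shPTN cells and 0 entirely above, where 22.5% and 16.8% of the 10394 genes tested did so, and nothing is read from these counts because the contrast chose the members. In E0771-LG cells the limma test covered 10405 genes, and 24.3% of them rose and 22.1% fell with shPTN past the threshold. Without shPTN replicate 2 the calls over all genes dropped from 2531 and 2295 to 1657 and 1588. Of the members, 1 rose and 4 fell. By overlap, 2 members lay entirely above and 5 entirely below, against 30.5% and 26.7% of the genes. Calls were so common in this line that the number of members called is not a result about the family. For the members the median log2 fold change was -0.46 (E0771) and -0.27 (E0771-LG), beside -0.03 and 0.05 over all genes tested. All 9 members passed the filter on low values in each of the 4 experiments.

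Between the lines with shCtrl, 4 members (*Klf5*, *Klf6*, *Klf9* and *Klf10*) were entirely higher in E0771-LG than in E0771 cells, by 0.50 to 0.75 on the log2 scale, where 22.9% of the 10223 genes past the filter in both lines were entirely higher. *Klf2* and *Klf3* were entirely lower, by -0.86 and -0.53, as were 40.1% of the genes, and *Klf4*, *Klf7* and *Klf13* overlapped. These values are a description, since they use samples of the contrast behind the rule.

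**Figure D2:**
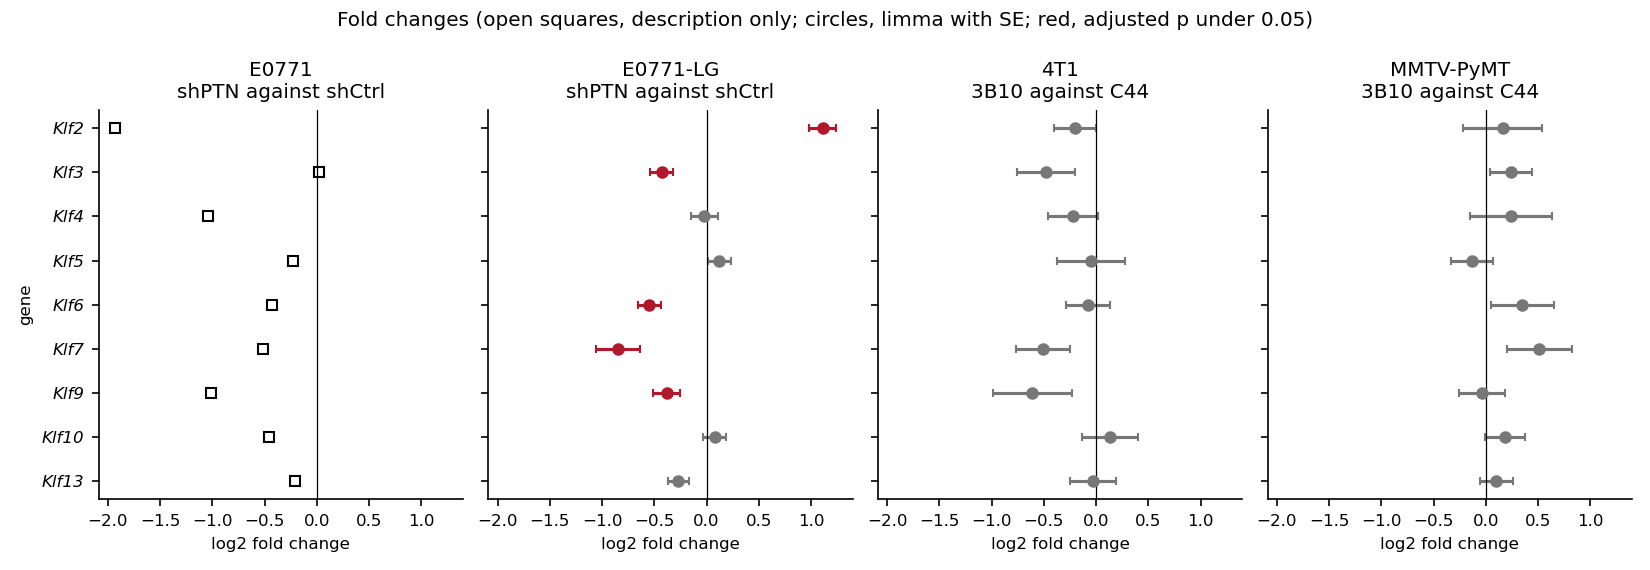
Log2 fold change (horizontal axis) of each of the 9 members (vertical axis) with shPTN against shCtrl in E0771 and E0771-LG cells and with 3B10 against C44 in 4T1 and MMTV-PyMT tumors; open squares carry no test, circles and bars are limma estimates with SE, and red marks an adjusted p under 0.05. In E0771-LG cells Klf2 stands at 1.11 and Klf7 at -0.85, and in the tumors no circle is red.

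Per length of merged exons, *Klf2* and *Klf6* stood above the other members in the cells and changed order with shPTN. In E0771 cells *Klf2* had 57.5 ± 7.04 reads per kb per M reads with shCtrl (SD, n = 3), near *Klf6* with 54.1 ± 3.42, and with shPTN the values were 15.1 ± 1.59 and 40.3 ± 4.99. In E0771-LG cells *Klf6* led with shCtrl, at 77 ± 9.93 against 31.7 ± 3.36 for *Klf2*, and *Klf2* with shPTN, at 68.6 ± 10.3 against 52.2 ± 3.01. *Klf7* and *Klf9* held the lowest places in all 4 groups of cells, with at most 4.94 reads per kb per M reads. In *MMTV-PyMT* tumors with C44 the order was *Klf6* (26.4), *Klf9* (13.9), *Klf13* (13.4) and *Klf10* (12.9), the last 3 within their spread, and *Klf2* had 4.47.

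Sites of the 7-base words AAACAGA and CAAACAG, which occur in both annotated *Ptn* transcripts, are shown for the 4 members that hold AAACAGA and lay entirely below shCtrl in E0771 shPTN cells. In GENCODE M21, 7 of the 9 members hold either word in a 3′ UTR and *Klf7* and *Klf10* hold neither, beside 30% of the genes tested in E0771 cells. Nothing is read from this count, since words and members were chosen with results of these data known, and the members' longest 3′ UTRs ran from 737 to 6266 bases, in 7 of 9 above the median of 1040 bases of genes with neither word. The sites below are on GRCm38 with 10 bases on either side and the word in capitals, on the plus strand for *Klf2* (chr8:72320978-72321004), *Klf6* (chr13:5870011-5870037) and *Klf9* (chr19:23164960-23164986) and on the minus strand for *Klf4* (chr4:55527924-55527950).
Klf2: gtccccttgcAAACAGActgctattta
Klf4: tcaagagacaAAACAGAaatactaaaa
Klf6: gtaagaaggtAAACAGAagagagagga
Klf9: agctcccaggAAACAGActgacacatg
In *Klf2* the words overlap at a single place. The other members that hold AAACAGA are *Klf5* and *Klf13*, whose groups overlapped in E0771 cells. *Klf3*, with CAAACAG alone, also overlapped there, and *Klf7* and *Klf10*, with neither word, lay entirely below shCtrl. Nothing is read from this tally either, since that contrast chose the members. In E0771-LG cells the members with AAACAGA had log2 fold changes of 1.11 (*Klf2*), 0.12 (*Klf5*), -0.02 (*Klf4*), -0.27 (*Klf13*), -0.38 (*Klf9*) and -0.55 (*Klf6*). *Klf3* had -0.43 there, and *Klf7* and *Klf10*, with neither word, had -0.85 and 0.08. Over all genes tested with a 3′ UTR, the median log2 fold change of genes with either word was -0.10 (E0771) and -0.14 (E0771-LG), beside -0.00 and 0.12 for genes with neither. These medians too are a description, since the words were chosen with results of these data known. Genes with a word have longer 3′ UTRs, with a median of 2452 bases in E0771 cells, and the sequence of the shRNA is in none of the files, so the part of these words was not tested.

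Of the other KLF and SP genes on a list of 17, 6 were in the table, namely *Klf11*, *Klf16*, *Sp1*, *Sp2*, *Sp3* and *Sp4*. The counts of this list and those below stand beside 24.3% higher and 22.1% lower of all genes in E0771-LG cells and, by overlap, 16.8% above and 22.5% below in E0771 cells, and no list is read as set apart from these shares. In E0771-LG cells 1 of the 6 fell, *Sp1*, the ubiquitous factor of GC boxes, by 0.54 on the log2 scale (SE 0.10, adjusted p = 0.00128). In E0771 cells *Klf11* had -0.88, *Sp2* -0.35 and *Sp1* -0.18 with shPTN entirely below shCtrl, and *Sp3* 0.24 with shPTN entirely above. The list's median was -0.17 in E0771-LG and -0.18 in E0771 cells, beside the 0.05 and -0.03 over all genes that hold for every list below.

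Of 10 corepressors and coactivators, 2 rose and 3 fell in E0771-LG shPTN cells, near the shares of all genes (24.3% and 22.1%). *Sin3b*, the scaffold bound by the group of *Klf9*, rose by 0.72 (adjusted p = 0.00043). The deacetylase gene *Hdac3* fell by 0.58 (adjusted p = 0.00134) and *Ctbp2*, a partner of *Klf3*, fell by 0.46 (adjusted p = 0.00444). *Ep300*, an acetyltransferase that works with the activators, fell by 0.50 (adjusted p = 0.0162), a call lost without shCtrl replicate 3 or shPTN replicate 2, in a range of 0.00106 to 0.0837 over the alternatives. In E0771 cells 1 cofactor lay entirely above and 2 below (16.8% and 22.5% of all genes), with 0.44 for *Ctbp1*, -0.27 for *Hdac3* and -0.14 for *Hdac2*. Medians were -0.08 (E0771-LG) and -0.03 (E0771).

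Upstream of *Klf2* and *Klf4*, MEKK3 (*Map3k3*) activates MEK5 (*Map2k5*) and ERK5 (*Mapk7*), ERK5 drives MEF2 factors at the *Klf2* promoter, and the CCM complex holds MEKK3 in check. Of these 10 genes, 4 rose and 2 fell in E0771-LG shPTN cells, where 24.3% and 22.1% of all genes did so, and 2 of the 4 that rose, *Mef2c* and *Pdcd10*, lost the call when some samples were left out (*Pdcd10* in 3 of 16 alternatives, adjusted p up to 0.0864). The genes that fell were *Map3k3*, from 7.11 ± 0.02 to 6.06 ± 0.17 log2 CPM (SD, n = 3 each), by 1.05 (adjusted p = 6.52e-05), and *Mef2a*, by 1.01 (adjusted p = 5.12e-05). The CCM genes *Krit1* and *Ccm2* rose by 0.51 (adjusted p = 0.00764) and 0.46 (adjusted p = 0.00224), and both calls were kept in all 16 alternatives. *Mef2c* rose by 1.81 (adjusted p = 0.0166) from 5 to 20 reads to 40 to 49 reads, and the call was lost without shPTN replicate 2 or replicate 3. Over the alternatives its log2 fold change ran from 0.98 to 2.12 and its adjusted p from 0.00656 to 0.0738. The part of these genes in the values of *Klf2* was not tested. In E0771 cells the groups did not overlap for *Krit1* (0.29), *Mef2a* (-0.25), *Ccm2* (0.24) and *Map2k5* (0.16). Medians were 0.21 (E0771-LG) and -0.03 (E0771).

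Of 5 ubiquitin ligases that act on KLF proteins, *Wwp1*, which degrades KLF2 and KLF5, fell by 0.79 in E0771-LG shPTN cells (adjusted p = 0.000197). *Fbxw7* rose by 0.42 (adjusted p = 0.0424), a call lost in 7 of 16 alternatives, among them each sample left out other than shCtrl replicate 2. Its log2 fold change ran from 0.25 to 0.53 and its adjusted p from 0.0131 to 0.135. In E0771 cells *Btrc* had -0.26 with no overlap. The list had medians of -0.12 (E0771-LG) and -0.06 (E0771).

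Of 10 known targets of the members, 8 were in the table and 6 were tested in each line, of which 2 rose and 2 fell in E0771-LG shPTN cells (24.3% and 22.1% of all genes). *Lgals3*, which encodes galectin-3, rose by 0.66 (adjusted p = 0.000245, lost at 0.207 in the fit over 18 samples, in a range from 3.32e-05), and *Cdkn1a*, the cell cycle inhibitor p21, by 1.08 (adjusted p = 0.0496) with groups that overlapped. The *Cdkn1a* call was lost in 10 of 16 alternatives, among them every sample left out other than shCtrl replicate 2, in a range of 0.000119 to 0.267. *Eng*, which encodes endoglin, fell by 0.55 (adjusted p = 0.00068). *Ccnd1*, which encodes cyclin D1, fell by 0.46 (adjusted p = 0.00282, lost at 0.0635 in the fit over 18 samples, in a range from 0.00125). In E0771 cells the values with no overlap were 1.31 for *Smad7*, -1.31 for *Ccl5*, -0.56 for *Lgals3* and 0.49 for *Ccnd1*, so *Lgals3* and *Ccnd1* had opposite signs in the lines, a difference that was not tested. The targets had medians of 0.03 (E0771-LG) and -0.02 (E0771).

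*Klf2*, *Klf4*, *Klf6* and *Klf10* can be induced within minutes to hours like immediate early genes, of which 12 of 13 were in the table. In E0771-LG shPTN cells 3 of the 10 tested rose and 1 fell, beside 24.3% and 22.1% of all genes. *Nr4a1* rose by 1.13 (adjusted p = 0.0032). *Junb* rose by 0.59 (adjusted p = 0.0253) with groups that overlapped, lost in 5 of 16 alternatives, in a range of 0.000679 to 0.107. *Dusp1* rose by 0.47 (adjusted p = 0.0158), lost in 3 of 16, in a range of 0.00699 to 0.261. *Egr1* fell by 2.07 (adjusted p = 0.0358) on 19 to 27 reads against 2 to 12, lost in 5 of 15 alternatives, over which the log2 fold change ran from -2.92 to -0.74 and the adjusted p from 0.003 to 0.0926. In E0771 cells 1 of the 11 tested lay entirely above and 4 entirely below (16.8% and 22.5% of all genes). The largest changes without overlap were those of *Atf3* (-1.44), *Dusp1* (1.11), *Ier2* (-0.88) and *Junb* (-0.80). Over the list the median log2 fold change was -0.47 (E0771) and 0.52 (E0771-LG), with genes of either sign in each line.

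**Figure D3:**
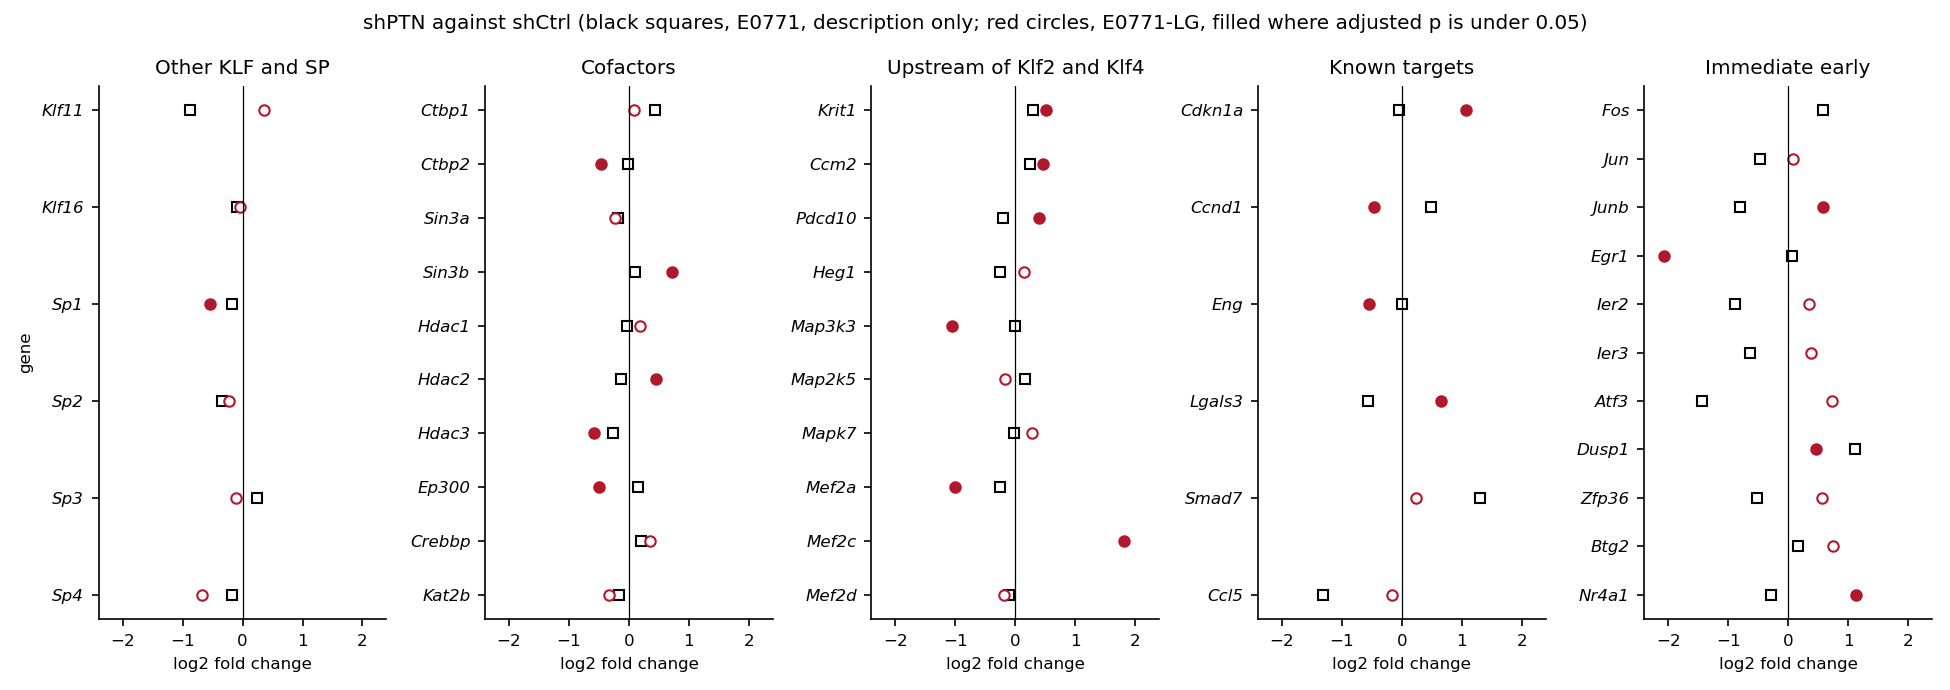
Log2 fold change with shPTN against shCtrl (horizontal axis) of genes around the Kruppel-like factors (vertical axis), in 5 panels by list; black open squares are E0771 cells, with no test, and red circles are E0771-LG cells, filled where limma's adjusted p is under 0.05. Map3k3 and Mef2a stand at -1.05 and -1.01 in E0771-LG cells, and Atf3 at -1.44 in E0771 cells.

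Other marker lists also had different levels with shPTN in E0771-LG cells. The epithelial markers summed to 158 to 204 CPM with shCtrl and 424 to 565 CPM with shPTN, most of it *Krt8*. The fibroblast markers summed to 88.8 to 138 CPM and 55.2 to 69.3 CPM, most of it *Pdgfra*, but the 5 genes went both ways, with 2 entirely above and 3 entirely below with shPTN. The adipocyte markers, 2 of 4 in the table and nearly all *Fabp4*, summed to 11 to 18.3 CPM with shCtrl and 1.18 to 3.93 CPM with shPTN, and the muscle markers, all *Acta1*, to 2.26 to 4.57 CPM and 0.947 to 1.66 CPM. In E0771 cells the fibroblast markers summed to 55.5 to 79.3 CPM with shCtrl and 151 to 172 CPM with shPTN. The myeloid markers summed to 3.58 to 6.29 CPM and 9.57 to 14.5 CPM in E0771-LG and to 11.7 to 22.3 CPM and 30.5 to 42.8 CPM in E0771 cells, with 2 or 3 of the 5 at 0 in all but 1 of these samples. The higher sum in E0771 cells was that of *Lyz2*, from a mean of 2.73 to 4.96 log2 CPM, while *Cd68* had means of 3.25 and 2.33 with groups that overlapped. In E0771-LG cells *Lyz2* and *Cd68* were entirely above with shPTN, and *Csf1r* had 2 to 14 reads with shCtrl and 0 to 1 with shPTN. The part of these differences in the members' values was not tested.

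The genes whose 6 group means on the log2 CPM scale ran most like a member's were sought for *Klf2*, *Klf4* and *Klf6* among 11593 genes, as the smallest root mean square difference after centring. For *Klf2* these were *Igfbp6* (0.45), *Castor1* (0.48), *Zfp57* (0.48), *Lgals3* (0.49) and *Batf* (0.49). For *Klf4* they were *Ilk* (0.15), *Kiss1r* (0.19), *Nt5c3* (0.19), *Zfand4* (0.21) and *Nfkbib* (0.21). For *Klf6*, the last of the 3 members compared in this way, they were *Tango6* (0.06), *Mrpl3* (0.09), *Vasp* (0.11), *Mars2* (0.11) and *Rbsn* (0.11). The difference is not scaled to a member's range, which was widest for *Klf2* in the cells, so its size is not compared between members. The means include the contrast that chose the members, and the search is a description. *Igfbp6* had means of 5.20 and 4.64 log2 CPM in E0771 and 4.64 and 6.32 in E0771-LG cells with shCtrl and shPTN, and 1.95 and 2.56 in *MMTV-PyMT* tumors with C44 and 3B10.

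In each tumor model 3 of the 6 tumors correlated across genes more with the other group than with their own, so the groups were not well separated. In 4T1 these were C44 replicate 3 (mean r of 0.9672 with its own and 0.9701 with the other group), 3B10 replicate 1 (0.9652 and 0.9692) and 3B10 replicate 2 (0.9704 and 0.9707). In *MMTV-PyMT* they were C44 replicate 2 (0.9592 and 0.9614), C44 replicate 3 (0.9519 and 0.954) and 3B10 replicate 2, with the widest gap (0.9576 and 0.9661). For the members, 4T1 C44 replicate 3 was the lowest of its group for 8 of 9, and 4T1 3B10 replicate 1 and *MMTV-PyMT* C44 replicate 1 for 6 each. The 4T1 pair of C44 replicate 3 and 3B10 replicate 1 was lower for *Klf3*, *Klf5*, *Klf6*, *Klf7*, *Klf10* and *Klf13* in common and higher for *Klf2*, and across genes their deviations from the group means correlated with r = 0.478. The other 4T1 tumors also matched across the groups, C44 replicate 2 with 3B10 replicate 2 (r = 0.436) and C44 replicate 1 with 3B10 replicate 3 (r = 0.416). Deviations from a mean of 3 sum to 0, so some matching is positive by construction, and its value without any link was not computed. *Klf3* and *Klf7*, and none of the other members, were lower with 3B10 in every pair matched in this way. The pairs were matched on the values of these same tumors, so nothing is read from these signs, and no fit used the pairs. 4T1 C44 replicate 3 and 3B10 replicate 1 were also left out together, a choice made after the values were seen, and every tumor was left out by itself.

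With the anti-PTN antibody no member passed the test in either tumor model. Of the 9 members 0 passed in 4T1 tumors, where 0% of the 11467 genes tested by limma passed and 719 had an unadjusted p under 0.05, none of them a member. With 1 4T1 tumor left out, the number of genes at an unadjusted p under 0.05 ran from 370 to 1302. In *MMTV-PyMT* tumors 0 of 9 passed, where 0% of 11361 genes passed and 307 had an unadjusted p under 0.05, again with 0 members, and voom weights on the recovered reads also gave 0. Every alternative gave 0 members in both models, and only leaving out 4T1 3B10 replicate 1 gave any gene past the threshold, 2 in all. No member's groups were free of overlap in either model. In 4T1 tumors, 4.42% of genes lay entirely below and 6.87% entirely above with 3B10, and in *MMTV-PyMT* tumors, 2.27% and 6.06%.

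In 4T1 tumors *Klf2* was 4.52, 4.04 and 4.78 with C44 and 4.34, 4.21 and 4.17 with 3B10 on the length-normalized log2 scale, with the 3B10 values inside the range of the others. The difference was -0.20 (SE 0.20, limma's adjusted p = 0.952), or -0.41 to -0.04 with 1 tumor left out. *Klf9* had the lowest value, -0.61 (SE 0.38), from 3.72, 4.91 and 3.36 with C44 and 3.37, 3.58 and 3.21 with 3B10, where a single C44 tumor stood high, and leaving out 1 tumor gave -0.93 to -0.15. The sign turned on leaving out 1 tumor for *Klf5*, *Klf6*, *Klf10* and *Klf13*. *Klf7* had -0.51 (SE 0.26, adjusted p = 0.846), or -0.77 to -0.32 with 1 tumor left out. *Klf3* had -0.48 (SE 0.28, adjusted p = 0.872), or -0.78 to -0.30. The median over the members was -0.20, beside 0.01 over all genes tested. Without both C44 replicate 3 and 3B10 replicate 1, 0 members passed, with 0 genes past the threshold and 1838 at an unadjusted p under 0.05. *Klf4* was then at -0.54, against -0.22 with all tumors, and *Klf9* at -0.92.

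Marker genes of cell types were also summed in the 4T1 tumors. The lymphocyte markers (3 of 6 in the table) summed to 60.8, 72.9 and 71.9 with C44 and 37.2, 44 and 20.9 with 3B10 on the length-normalized scale off the log. The myeloid markers, mostly *Lyz2*, summed to 8934, 6023 and 7766 with C44 and 2917, 6036 and 3758 with 3B10. The epithelial markers, mostly *Krt18*, summed to 3192, 3464 and 3451 and to 4940, 4460 and 5100. The muscle gene *Acta1* was at 1.84, 0.185 and 0.232 with C44 and 10.7, 75.8 and 66.1 with 3B10. The endothelial markers ranged from 113 to 268 with C44 and from 104 to 225 with 3B10, and the fibroblast markers from 838 to 1315 and from 739 to 2944. None of these genes passed limma's threshold, while at an unadjusted p under 0.05 there were 3 lymphocyte, 4 myeloid, 5 epithelial, 2 fibroblast, 1 muscle, 0 endothelial and 0 adipocyte markers, and their part in the members' values was not tested.

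In *MMTV-PyMT* tumors *Klf2* was 3.48, 3.21 and 2.15 log2 CPM with C44 and 3.45, 3.06 and 2.82 with 3B10, and the lowest C44 tumor, at 83 reads, set the spread. The difference was 0.16 (SE 0.38, limma's adjusted p = 1), or -0.24 to 0.42 with 1 tumor left out, and the sign turned in this way also for *Klf4*, *Klf5*, *Klf9* and *Klf13*. *Klf7* had the highest value, 0.51 (SE 0.31), from 4.15, 5.46 and 4.80 with C44 and 5.28, 5.18 and 5.46 with 3B10, or 0.18 to 0.83 with 1 tumor left out. The other members lay between -0.13 for *Klf5* (-0.31 to 0.01 with 1 tumor left out) and 0.35 for *Klf6* (0.05 to 0.62), with a median of 0.18 over the 9 beside 0.05 over all genes tested. All C44 libraries, with 18.76 to 19.25 M reads on genes, were larger than the 3B10 libraries, with 16.26 to 18.44 M. The endothelial markers summed to 108 to 174 CPM with C44 and 115 to 171 CPM with 3B10, and the lymphocyte markers to 17 to 24.9 CPM and 15.6 to 27.1 CPM. The lymphocyte sum was mostly *Ptprc*. *Cd3e* (8 to 12 reads with C44, 1 to 8 with 3B10) and *Cd3g* (14 to 23 and 6 to 17) were too low to be tested. The adipocyte markers summed to 15.3, 16.1 and 6.24 CPM with C44 and 63.2, 13.3 and 7.07 CPM with 3B10, and *Cfd* among them lay entirely above with 3B10, at 23 to 551 reads against 3 to 25. At an unadjusted p under 0.05 there were 1 adipocyte and 1 epithelial marker, and 0 of the other lists, with 0 past limma's threshold. Their part in the members' values was not tested.

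Among the lists of related genes, 0 genes passed limma's threshold in either tumor model. At an unadjusted p under 0.05 there were 2 immediate early genes in 4T1 and 1 in *MMTV-PyMT* tumors, and 0 of the other KLF and SP factors, cofactors, upstream genes, ligases and targets in either.

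**Figure D4:**
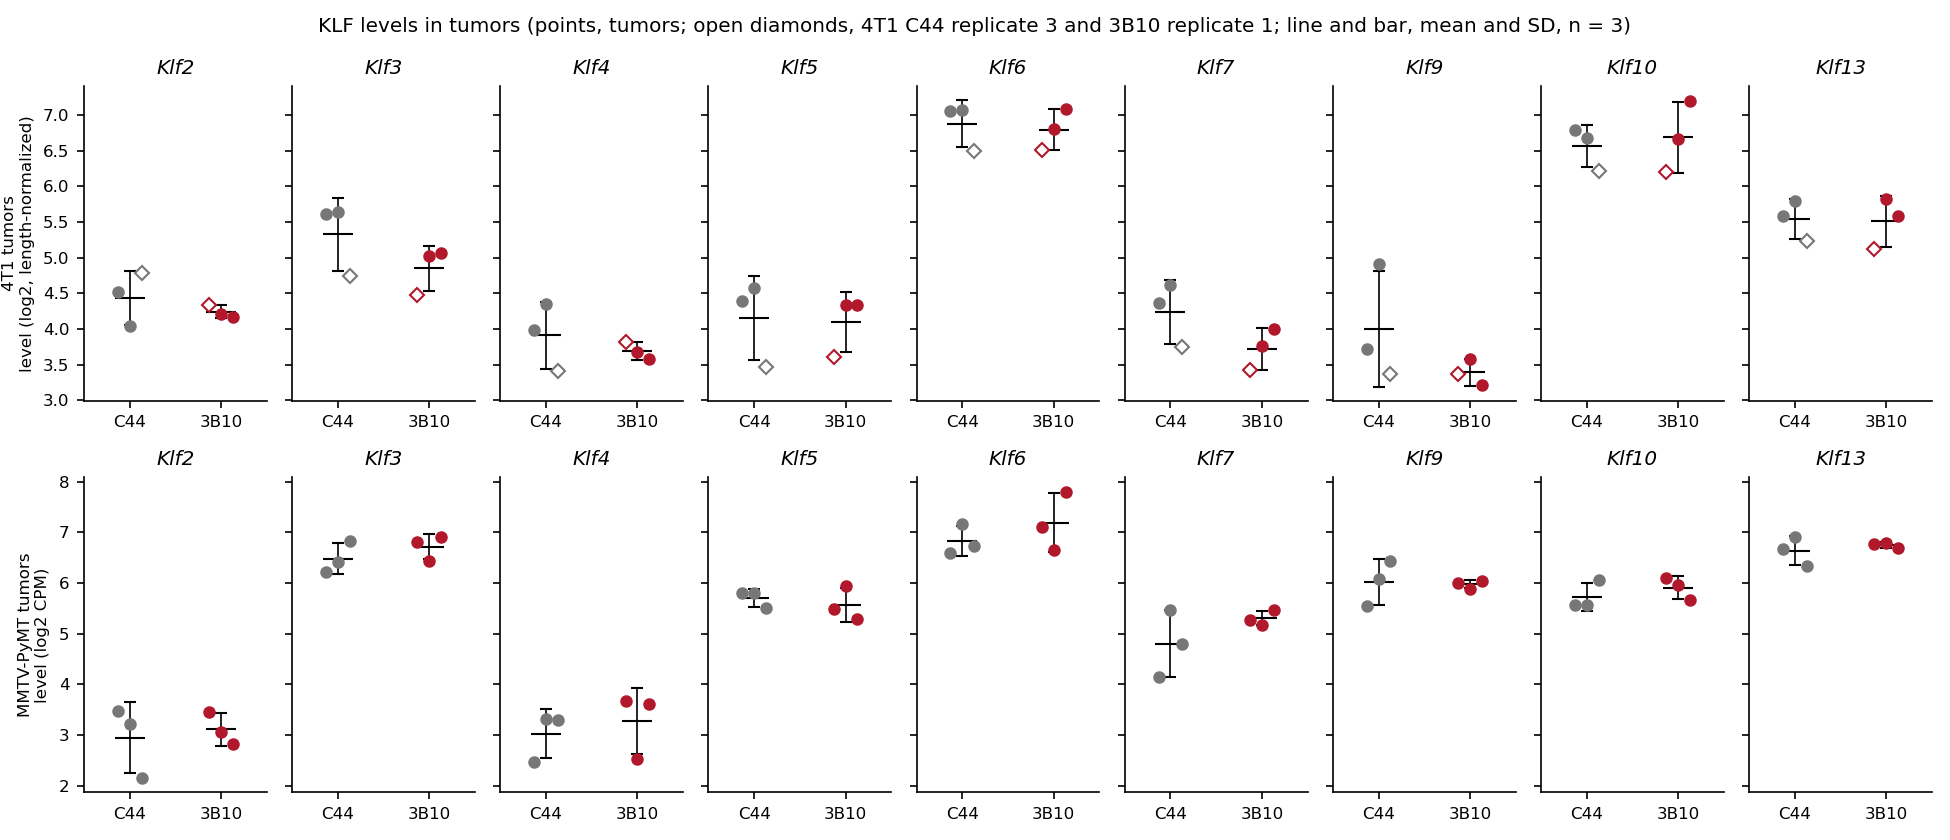
Level of each of the 9 members in 4T1 tumors (top, log2 length-normalized values) and MMTV-PyMT tumors (bottom, log2 CPM) of mice given C44 (gray) or 3B10 (red); points are tumors, open diamonds are 4T1 C44 replicate 3 and 3B10 replicate 1, and the line and bar are the mean and SD (n = 3). The groups overlap for every member in both models.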

How the data were processed

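The study's methods name Hisat2 and Stringtie (mm10) for alignment and assembly, and the authors analysed differences with Rsubread and edgeR; the labels also name featureCounts and limma. The authors deposited log2 values for 12091 genes in 24 samples, and the step that made them is not stated. In 18 samples they are log2 CPM with an offset of 0.5 reads, so that reads could be recovered (whole numbers within 0.01), and in the 6 4T1 tumors they are normalized for length. Each experiment was fitted with limma 3.58.1 in R 4.3.3 (lmFit, eBayes with trend and robust, two-sided), over genes with a value off the log scale of at least 1, above the lowest of the sample, in at least 3 of 6 samples. P-values were adjusted by Benjamini-Hochberg over all genes tested, with a threshold of 0.05. The script of the test was tested on simulated data. From each list of related genes at most 4 were named per experiment, those past the threshold (in E0771, without overlap) with the largest changes. *Pdcd10* was named besides these because its call was lost in some alternatives, and *Ccm2* in E0771-LG cells because its call was kept in all. Members and lists were chosen with earlier results of these data known. Positions and 3′ UTRs are from GENCODE M21 and promoters from RefSeq. Alternatives were filters, pseudocounts of 1 and 0.1, scaling, eBayes not robust, a replicate block, 1 fit over 18 samples, voom weights and leaving out samples. Sums and plots used Python 3.11.15, numpy 2.4.6, pandas 2.3.3 and matplotlib 3.10.9.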

Additional observations from a re-analysis of the deposited data

Results flagged for a closer look

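*Klf2* was flagged because its shPTN and shCtrl groups did not overlap in either line and went opposite ways. The log2 fold change stood at -1.93 (E0771, shPTN against shCtrl) and 1.11 (E0771-LG). This difference was not tested, since the E0771 contrast chose the members.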

How the results depend on the processing

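In E0771-LG cells 5 members passed the threshold, and 4 to 6 did so in the 16 alternatives; leaving out 1 sample gave 4 to 5. In 4T1 and *MMTV-PyMT* tumors the count was 0 in the 15 and 16 alternatives. The log2 fold change of *Klf2* in E0771 cells lay between -2.04 and -1.84 over 16 alternatives. With the replicate number as a block, 4 members passed in E0771-LG cells and 0 in both tumor models, *Klf9* had an adjusted p of 0.0537, and over all genes in E0771-LG cells 2634 rose and 2378 fell, beside 2531 and 2295 without the block. Whether the numbers pair the samples is not stated. The deviations of samples with the same number correlated across genes with r = 0.158, 0.237 and -0.117 in E0771-LG cells. In 4T1 tumors r ran from -0.327 to 0.436. The value of r without any link was not computed, so these values do not decide the question. No call of a member changed direction. The 4T1 depth is unknown, and *Klf2* in *MMTV-PyMT* tumors rests on as few as 83 reads. Leaving out 4T1 C44 replicate 3 and 3B10 replicate 1 together was added after the values were seen.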
